A study of Mus musculus with 2 samples.

Results

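Keratins are the intermediate filament proteins of epithelial cells, and keratin-associated proteins are the small proteins that crosslink keratin in hair. Mouse gene symbols starting with Krt and a digit, or with Krtap, picked out 104 of the 23997 gene rows, 52 Krt genes and 52 Krtap genes. Each had 1 isoform row with a value within 1% of the gene's, so isoforms could not be compared within a gene. RNA was measured in MHC class II-high medullary thymic epithelial cells (mTECs), which present antigens of other organs to T cells that mature in the thymus. The data are 1 library labelled Aire-KO, with genotype Aire-/-, and 1 labelled WT. Both came from pooled C57BL/6 mice, and the cells were sorted by flow cytometry. The labels give neither the number, age and sex of the pooled mice nor the Aire allele. Since each genotype had a single library, no difference has a replicate check and no p-value was computed.

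A keratin filament is built from pairs of 1 acidic type I chain and 1 basic type II chain, and the chains of a tissue are made in matched pairs. Simple epithelia such as gut and ducts make Krt8 with Krt18. The basal layer of stratified epithelia makes Krt5 with Krt14, its upper layers switch to pairs such as Krt1 with Krt10 or Krt4 with Krt13, and hair has sets of its own. The type I genes other than Krt18 lie in a cluster on chromosome 11 in the mouse and the type II genes, with Krt18, in a cluster on chromosome 15. Thymic epithelium is known for Krt8 and Krt18, and the medulla also for Krt5 and Krt14.

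The targeted gene, Aire, is the transcriptional regulator that turns on many genes of peripheral tissues in mTECs. Its transcript stood at 640.2 FPKM in the library labelled Aire-KO and 220.6 FPKM in the library labelled WT, a log2 ratio of 1.54. FPKM is the number of fragments scaled by transcript length and by library depth. The value is for the transcript as a whole and says nothing of a deleted part, so Aire-KO and WT are used below only as names of the libraries. An exchange of the labels was not tested and would turn round every ratio and call below. FPKM over all genes with an estimate summed to 551619 in Aire-KO and 523609 in WT. The steps between low values gave an estimated depth of 54000000 fragments in Aire-KO and 47400000 in WT. The mTEC markers with a row in the table summed to 23588 FPKM in Aire-KO and 17073 in WT, with 9 of 9 above the minimum level, 0 of them lower and 1, Aire, higher. Of 9 dendritic cell and macrophage markers above that minimum, 7 were lower and 0 higher, summing over all 12 listed to 457.7 FPKM in Aire-KO and 720.8 FPKM in WT, and Cd209a was listed at 0 in Aire-KO. Most of that dendritic cell and macrophage sum was Lyz2, at 436.4 FPKM in Aire-KO and 675.5 in WT. Thymocyte markers summed to 22.1 FPKM in Aire-KO and 37.4 in WT, with 3 of 10 lower. Cortical epithelial markers summed to 1262 FPKM in Aire-KO and 819.4 in WT, with 1 of 7 lower. Most of this sum was Tbata, at 1045 FPKM in Aire-KO and 589.1 in WT, and the median log2 ratio of the 7 was -0.19. B cell markers summed to 52.7 FPKM in Aire-KO and 49.7 in WT, with 1 of 6 lower and 1 higher. Fibroblast and endothelial markers summed to 27.5 FPKM in Aire-KO and 36.8 in WT, with 2 of 6 lower, and erythroid markers to 25.6 FPKM in Aire-KO and 43.9 in WT, with 2 of 4 lower. Over all genes above the minimum 20.5% were lower, and 35.7% of those with a mean of 0.5 to 5 FPKM, the range of 6 of the 9 dendritic cell and macrophage markers and 7 of the 10 thymocyte markers. Of the 9 dendritic cell and macrophage markers, 3 (Itgax, Adgre1 and Cd209a) were under 0.5 FPKM in Aire-KO. They reached the minimum mean through WT and could not be called higher. The same held for 1 thymocyte, 1 B cell, 1 fibroblast or endothelial and 1 erythroid marker. The part of any of these marker sets in the keratin values was not tested.

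Most keratin genes were lower in Aire-KO, while the 6 with the highest mean over both libraries differed by less than 2-fold. The next by mean, Krt10, was lower, and in WT alone its 372.5 FPKM stood above Krt7 and Krt14. Ratios are log2((Aire-KO + 0.1)/(WT + 0.1)) of FPKM, and calls of lower and higher needed a 2-fold difference and a mean over both libraries of at least 0.5 FPKM. Of the 52 Krt genes, 46 reached that mean, of which 37 were lower, 0 higher and 9 neither. Over all 15906 genes that reached it, 20.5% were lower and 7.09% higher. The median log2 ratio was -2.91 for the 46 Krt genes and 0.053 for all 15906 genes. Of the 46 Krt genes, 30 were at least 4-fold lower, against 11.9% of all genes, and 0 at least 4-fold higher, against 0.629% of all genes. There were 13 Krt genes at least 16-fold lower, against 3.30% of all genes. A gene that reaches the mean only through WT could not be called higher, and at a low Aire-KO value had to be lower. With 0.5 FPKM required in Aire-KO alone, a rule that favours the other direction, 24 of 33 Krt genes were lower and 0 higher, against 12% and 8.32% of all 14403 genes. At a mean of 5 to 50 FPKM, 17 of 18 Krt genes were lower and 0 higher, against 11.1% and 6.32% of all genes at that level. From 50 FPKM upwards, 7 of 13 Krt genes were lower and 0 higher, against 10.7% and 7.86% of all genes. In the range of 0.5 to 5 FPKM, 13 of 15 Krt genes were lower and 0 higher, against 35.7% and 7.85% of all genes. The 9 Krt genes that were neither lower nor higher were Krt18, Krt8, Krt7, Krt5, Krt14, Krt17, Krt222, Krt25 and Krt33b. In these pooled cells, fewer cells of a kind and less RNA per cell cannot be told apart.

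**Figure D1:**
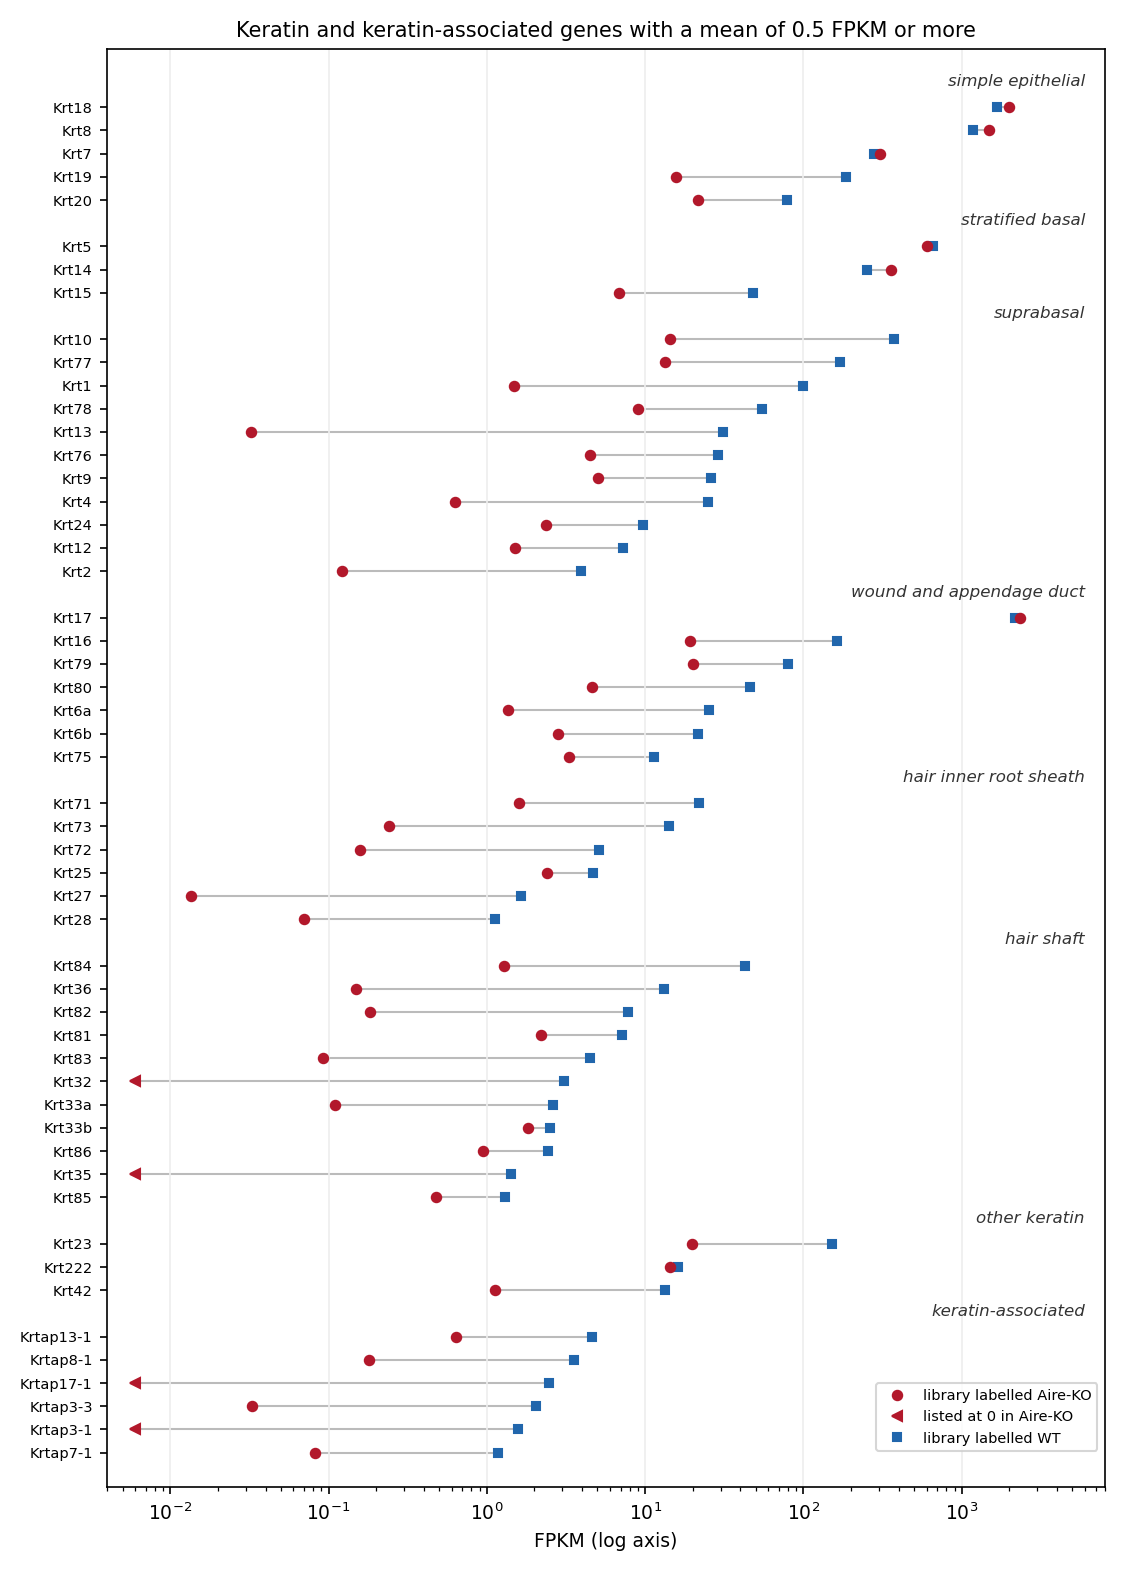
FPKM on a log axis of the 52 keratin and keratin-associated genes that averaged 0.5 FPKM or more, grouped by class. Red circles are the library labelled Aire-KO, red triangles at the left edge genes listed at 0 there, and blue squares the library labelled WT. In each class that holds Krt18, Krt8, Krt7, Krt5, Krt14 or Krt17 these genes have overlapping or near symbols at the right, from 251.0 to 2325 FPKM, while most other genes lie far to the left in Aire-KO.

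Total keratin RNA differed little, since 6 genes carried most of it. The FPKM of all 52 Krt genes summed to 7255 in Aire-KO and 8006 in WT, 1.32% of all FPKM in Aire-KO and 1.53% in WT. Krt8, Krt18, Krt17, Krt5, Krt14 and Krt7 together summed to 7060.2 FPKM in Aire-KO and 6197 FPKM in WT. They made up 97.3% of the summed Krt FPKM in Aire-KO and 77.4% in WT. These 6 had the highest means over both libraries, and none was called lower or higher, so the split in part follows the calls. In WT alone Krt10, at 372.5 FPKM, stood above Krt7 and Krt14. The other 46 Krt genes summed to 195.1 FPKM in Aire-KO and 1809 FPKM in WT, 9.27-fold less in Aire-KO. Genes of both chain types were among them. The type I genes without Krt18, Krt17 and Krt14 summed to 126.6 FPKM in Aire-KO and 1135 FPKM in WT. The type II genes without Krt8, Krt5 and Krt7 summed to 68.5 FPKM in Aire-KO and 674.2 FPKM in WT.

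**Figure D2:**
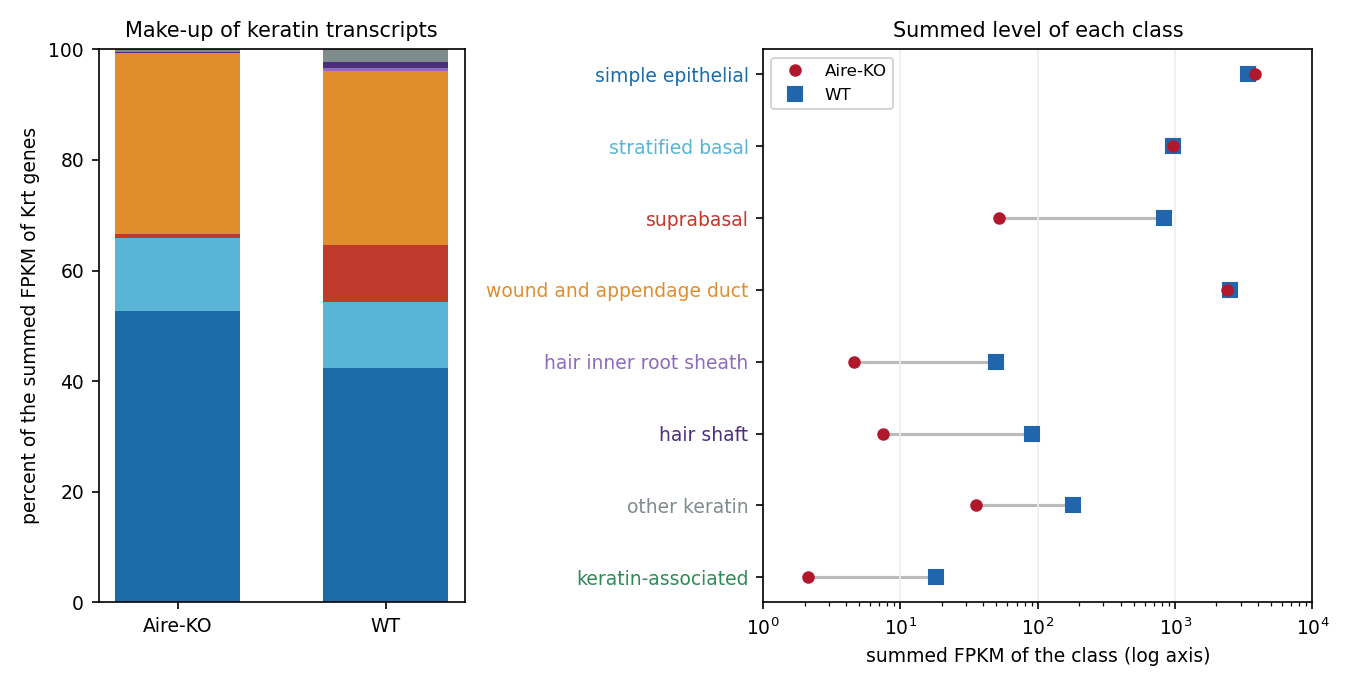
Left, the share of each keratin class in the summed FPKM of all Krt genes, in percent, as stacked bars for Aire-KO and WT in the colours of the class names at the right. Right, the summed FPKM of each class on a log axis, with red circles for Aire-KO and blue squares for WT. Suprabasal keratins take 0.722% of the Aire-KO bar and 10.4% of the WT bar, while the sums of the simple, basal, and wound and duct classes nearly coincide.

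Most keratin promoters were poor in CpG, and many held a TATA motif near the start. Windows of 300 bases, 250 before to 50 after the RefSeq start (GRCm38.p6, the same build as mm10), were matched to 79 members. The 5 windows below are shown because they cover both patterns: 3 simple keratins with near equal levels in both libraries, and 1 suprabasal and 1 inner root sheath keratin that were lower. Each is printed 5′ to 3′ on the gene's strand, and capitals mark every CpG and every TATAAA.
Krt18: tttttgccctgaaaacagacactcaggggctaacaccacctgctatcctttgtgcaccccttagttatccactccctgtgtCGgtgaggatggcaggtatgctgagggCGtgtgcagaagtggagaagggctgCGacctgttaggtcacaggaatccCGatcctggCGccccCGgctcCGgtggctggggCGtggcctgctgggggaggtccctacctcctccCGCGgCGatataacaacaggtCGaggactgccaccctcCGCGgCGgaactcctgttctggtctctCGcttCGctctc
Krt7: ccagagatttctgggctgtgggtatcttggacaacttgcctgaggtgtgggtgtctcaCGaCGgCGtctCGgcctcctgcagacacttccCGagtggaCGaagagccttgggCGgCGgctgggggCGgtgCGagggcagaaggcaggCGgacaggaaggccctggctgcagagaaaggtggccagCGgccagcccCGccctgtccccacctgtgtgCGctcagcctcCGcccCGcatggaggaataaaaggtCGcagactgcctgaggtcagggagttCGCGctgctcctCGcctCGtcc
Krt8: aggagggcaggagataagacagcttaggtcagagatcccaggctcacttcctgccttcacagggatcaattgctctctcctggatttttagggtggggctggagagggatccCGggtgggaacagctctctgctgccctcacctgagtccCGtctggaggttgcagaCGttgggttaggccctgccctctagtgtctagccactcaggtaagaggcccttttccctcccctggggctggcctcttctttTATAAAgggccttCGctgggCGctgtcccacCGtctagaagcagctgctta
Krt10: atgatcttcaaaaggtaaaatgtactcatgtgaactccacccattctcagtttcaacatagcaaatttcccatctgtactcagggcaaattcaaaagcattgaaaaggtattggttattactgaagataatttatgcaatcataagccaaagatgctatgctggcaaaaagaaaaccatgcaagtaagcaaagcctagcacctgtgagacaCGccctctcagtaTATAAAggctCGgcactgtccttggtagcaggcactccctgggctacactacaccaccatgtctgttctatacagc
Krt71: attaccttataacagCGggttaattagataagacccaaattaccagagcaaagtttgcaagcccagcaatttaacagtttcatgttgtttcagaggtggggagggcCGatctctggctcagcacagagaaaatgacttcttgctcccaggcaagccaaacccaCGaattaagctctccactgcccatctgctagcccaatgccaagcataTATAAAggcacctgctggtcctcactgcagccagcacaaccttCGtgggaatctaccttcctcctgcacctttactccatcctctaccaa

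The printed window of Krt18 (chr15:102027966-102028265, plus strand) held 17 CpG and that of Krt7 (chr15:101412153-101412452, plus strand) held 21. In the window of Krt8 (chr15:102004293-102004592, minus strand) there were 6 CpG. The window of Krt10 (chr11:99389315-99389614, minus strand) held 2 CpG, and that of Krt71 (chr15:101743048-101743347, minus strand) held 4. TATAAA began 26 bases before the start of Krt10 and 40 bases before that of Krt71. In Krt8 it began 1 base before the start. It was searched on the gene's strand from 45 to 16 bases before the start, and 13 of 34 Krt windows and 28 of 45 Krtap windows held it there. Over the 14511 windows of genes in the table, 2.98% did. Anywhere in the window and on either strand, 19 of 34 Krt windows held it, Krt8 included, and 13.2% of all. Within 45 to 16 bases before the start, it was held by 5 of 7 inner root sheath and 4 of 9 hair shaft windows. There it was also held by 3 of 9 suprabasal windows and 1 of 4 simple windows, that of Krt20. CpG observed over expected, the CpG count relative to what the C and G content gives, had a median of 0.270 over Krt windows, 0.159 over Krtap windows and 0.597 over all windows. It was 0.641 for Krt7 and 0.603 for Krt18, but 0.238 for Krt8 and 0.251 for Krt5, as low as in many lower genes. The median was 0.254 for the 23 Krt genes that were lower and 0.351 for the 6 that were neither. Over all genes above the minimum the corresponding medians were 0.288 for lower genes and 0.782 for those that were neither. On either strand anywhere in the window, GGGCGG was held by 2 of 34 Krt windows and 48.3% of all, CACCC by 28 of 34 and 58.3% of all, GCCNNNGGC by 6 of 34 and 20.2% of all, and TGANTCA by 1 of 34 and 7.44% of all. GGGCGG contains a CpG, so its count is not separate from the CpG content. A match or its absence is a property of these letters only.

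**Figure D3:**
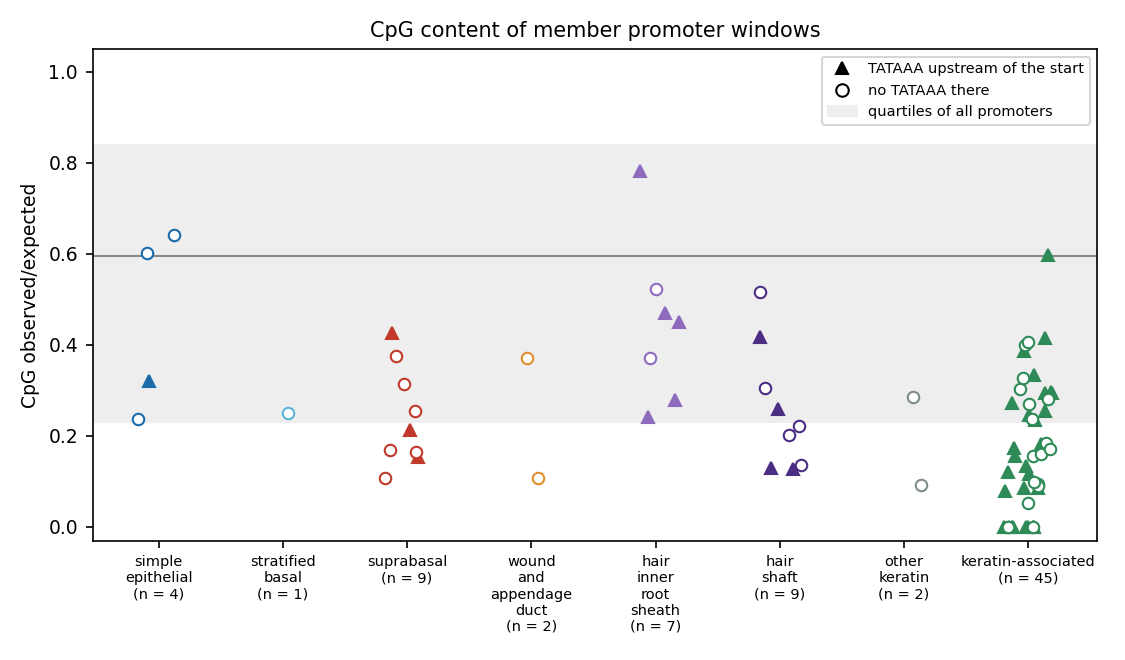
CpG observed over expected (no unit) in the promoter windows of 79 members by class, with filled triangles for windows that hold TATAAA 45 to 16 bases before the start and open circles for the others. The grey band runs from the lower to the upper quartile of all 14511 windows and the line is their median, 0.597. Krt7 and Krt18 lie just above the line in the simple class, and most hair and keratin-associated windows lie below it.

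The simple keratins split. Krt18 and Krt8, the filament pair of simple epithelia, were among the most abundant transcripts of both libraries. Krt18 (chr15:102028216-102032026, in mm10 as are all positions of genes here) had 1990.0 FPKM in Aire-KO and 1679 FPKM in WT, the 19th most abundant gene in Aire-KO and the 18th in WT. Its log2 ratio was 0.24, with a 95% counting interval of 0.23 to 0.26. Krt8 (chr15:101996711-102004342) had 1486 FPKM in Aire-KO and 1169 FPKM in WT, a log2 ratio of 0.35. Krt7, a type II keratin of glands and ducts, had 302.5 FPKM in Aire-KO and 277.7 FPKM in WT. None of these 3 reached the 2-fold threshold in either direction. Krt19 (chr11:100140811-100145919), a type I keratin of simple and glandular epithelia, had 15.6 FPKM in Aire-KO and 184.4 FPKM in WT. It was 11.8-fold lower, with a log2 ratio of -3.56 and a counting interval of -3.65 to -3.48. Krt20, a type I keratin of intestinal epithelium and urothelium, had 21.7 FPKM in Aire-KO and 79.1 FPKM in WT, a log2 ratio of -1.86. Krt19 and Krt20 are both type I partners of Krt8, whose own level was not lower. The 5 simple genes summed to 3816 FPKM in Aire-KO and 3389.7 FPKM in WT. Counting intervals come from estimated fragments and leave out the 0.1 pseudocount, and they cover counting error only.

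Neither chain of the basal pair of stratified epithelia reached a 2-fold difference. Krt5 (chr15:101707070-101712891) had 599.1 FPKM in Aire-KO and 661.4 FPKM in WT, a log2 ratio of -0.14. Krt14 (chr11:100203162-100207510) had 356.9 FPKM in Aire-KO and 251.0 FPKM in WT, a log2 ratio of 0.51. The level of Krt5 was 1.68 times that of Krt14 in Aire-KO and 2.64 times in WT, while that of Krt8 was 0.747 times that of Krt18 in Aire-KO and 0.696 times in WT. Krt15, a basal keratin that also marks the hair follicle bulge, went the other way from Krt14. It had 6.80 FPKM in Aire-KO and 47.8 FPKM in WT, a log2 ratio of -2.80. The 3 genes summed to 962.8 FPKM in Aire-KO and 960.1 FPKM in WT.

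Suprabasal keratins, which mark the upper layers of epidermis, mucosa and cornea, were lower without exception, in 11 of 11 genes. Over all genes above the minimum 20.5% were lower. The median log2 ratio of the class was -3.65. Of these 11, 2 (Krt13 and Krt2) were under 0.5 FPKM in Aire-KO, reached the minimum through WT and had to be lower. The 11 genes together had 52.4 FPKM in Aire-KO and 829.6 FPKM in WT, 15.8-fold less in Aire-KO. Krt10 (chr11:99385256-99389364), the type I chain of differentiating epidermis, had 14.3 FPKM in Aire-KO and 372.5 FPKM in WT. It was 26.1-fold lower, with a log2 ratio of -4.70 and a counting interval of -4.78 to -4.63, and its place by level was the 5712th gene in Aire-KO and the 179th in WT. Krt1 (chr15:101845426-101850786), the partner of Krt10, had 1.49 FPKM in Aire-KO and 99.9 FPKM in WT, a log2 ratio of -5.97. Its level was 0.104 times that of Krt10 in Aire-KO and 0.268 times in WT, so the type II chain of this pair was the further reduced. Krt77, a type II chain of epidermis and sweat ducts, had 13.4 FPKM in Aire-KO and 170.1 FPKM in WT. It was less reduced than Krt1, at a log2 ratio of -3.65, and it was the most abundant type II keratin of the class in both libraries. Krt2, the type II chain of the upper epidermis, had 0.121 FPKM in Aire-KO and 3.92 FPKM in WT.

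Among the mucosal keratins, Krt13 (chr11:100117596-100121495), the type I chain of oesophagus and tongue, had a log2 ratio of -7.88, the lowest of the Krt genes with a pseudocount of 0.1. With a pseudocount of 1 it was at -4.95 and Krt1 at -5.34. It had 0.0323 FPKM in Aire-KO, an estimated 2.6 fragments, and 31.0 FPKM in WT. Without a pseudocount its log2 ratio was -9.91, with a counting interval of -11.98 to -8.15 that takes the estimate as 3 whole fragments. Krt4 (chr15:101918535-101924735), its type II partner, had 0.630 FPKM in Aire-KO and 25.04 FPKM in WT, a log2 ratio of -5.11. In this pair the type I chain was the further reduced, and Krt4 stood at 19.5 times the level of Krt13 in Aire-KO and 0.809 times in WT. Krt76, a type II keratin of the palate, had 4.45 FPKM in Aire-KO and 29.0 FPKM in WT, a log2 ratio of -2.68. The other suprabasal genes fell less steeply. Krt78 had 9.05 FPKM in Aire-KO and 55.0 FPKM in WT, a log2 ratio of -2.59. Krt9, a keratin of footpad and palm skin, had 5.06 FPKM in Aire-KO and 26.2 FPKM in WT, a log2 ratio of -2.35. Krt12, the corneal type I keratin, had 1.501 FPKM in Aire-KO and 7.24 FPKM in WT, a log2 ratio of -2.20. Krt24 had 2.37 FPKM in Aire-KO and 9.65 FPKM in WT, a log2 ratio of -1.98. The ratios of the class thus spanned -7.88 to -1.98.

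Keratins of wounds and skin appendages had 1 very abundant member and 6 lower ones. Of these 7 genes, 5 had a mean of 5 to 50 FPKM, where 11.1% of all genes were lower. The other 2 were at 50 FPKM or more, where 10.7% were. Krt17 (chr11:100256217-100260989), a type I keratin of appendages that is induced in wounds, had 2325 FPKM in Aire-KO and 2159 FPKM in WT. It was the most abundant keratin of both libraries and, by level, the 14th gene in Aire-KO and the 15th in WT, with a log2 ratio of 0.11. Krt16, a related type I keratin with the same induction in wounded epidermis, had 19.2 FPKM in Aire-KO and 163.1 FPKM in WT, a log2 ratio of -3.08. These neighbouring genes thus differed by more than 3 log2 units in their ratios. Krt6a (chr15:101689928-101694305), the type II partner of Krt16 and Krt17, had 1.37 FPKM in Aire-KO and 25.3 FPKM in WT, a log2 ratio of -4.11. Krt6b had 2.82 FPKM in Aire-KO and 21.6 FPKM in WT, a log2 ratio of -2.89. Krt6a and Krt6b shared 31.8% and 30.1% of their 100-base transcript windows with another keratin, so their separate values depend on how reads were split. Krt79, a type II keratin of the upper hair follicle, had 20.0 FPKM in Aire-KO and 79.4 FPKM in WT, a log2 ratio of -1.98. Krt80 had 4.63 FPKM in Aire-KO and 46.0 FPKM in WT, a log2 ratio of -3.28. Krt75, a type II keratin of the companion layer of hair, had 3.30 FPKM in Aire-KO and 11.4 FPKM in WT, a log2 ratio of -1.75. Through Krt17 the class sums were close, at 2377 FPKM in Aire-KO and 2505 FPKM in WT.

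**Figure D4:**
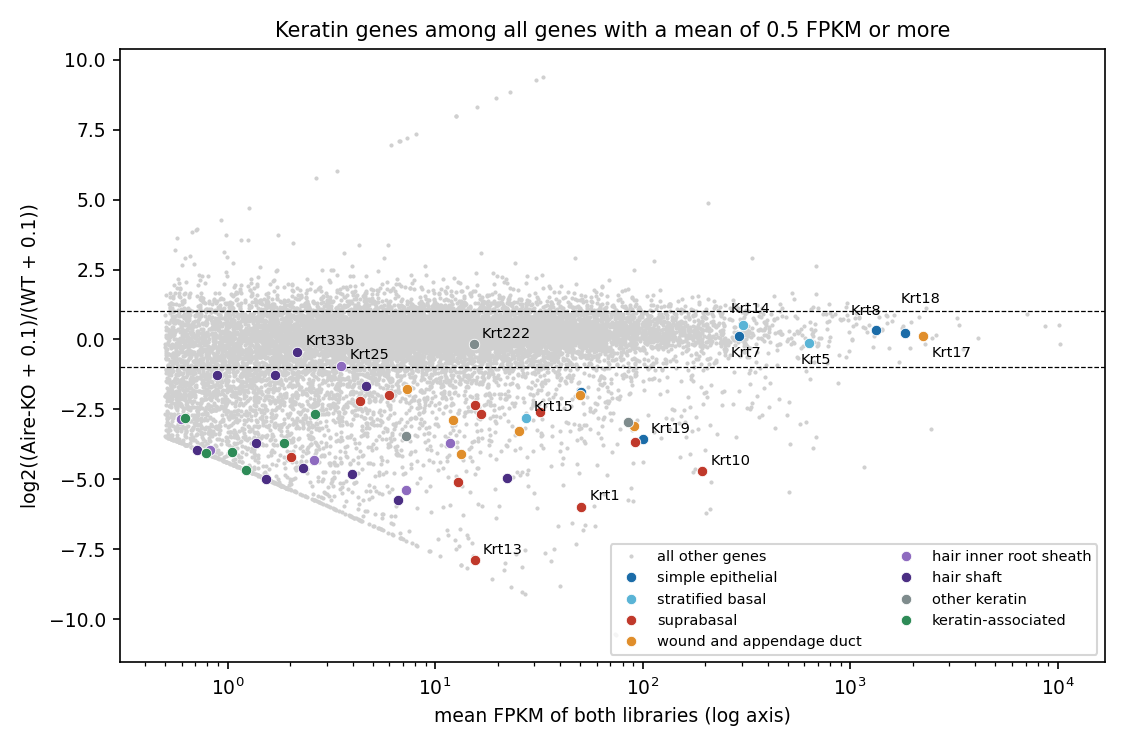
Log2 ratio of Aire-KO over WT, with 0.1 FPKM added to both, against the mean FPKM of both libraries on a log axis, for all genes that averaged 0.5 FPKM or more (grey) and for keratin and keratin-associated genes (coloured by class). Dashed lines mark a 2-fold difference. The keratins near the middle at the right are the 6 abundant genes, and Krt13, at -7.88, is the lowest coloured point.

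Inner root sheath keratins, made by the cells that mould the growing hair, were present in WT at low levels. Of 8 genes, 6 reached the minimum, of which 5 were lower and 0 higher. Over all genes above the minimum 20.5% were lower, and 35.7% at a mean of 0.5 to 5 FPKM, the range of 4 of the 6. Of these 6, 4 were under 0.5 FPKM in Aire-KO, reached the minimum through WT and had to be lower. With that minimum in Aire-KO alone 1 of 2 was lower, and with a mean of 2 FPKM 3 of 4 were. The class summed to 4.58 FPKM in Aire-KO and 49.3 FPKM in WT, a log2 ratio of -3.43. Krt71 (chr15:101733949-101743097), the type II keratin of all inner root sheath layers, had 1.60 FPKM in Aire-KO and 21.9 FPKM in WT, a log2 ratio of -3.69. Krt73 had 0.242 FPKM in Aire-KO and 14.2 FPKM in WT, a log2 ratio of -5.39. Krt72 had 0.159 FPKM in Aire-KO and 5.08 FPKM in WT, a log2 ratio of -4.32. The exception was Krt25, the type I partner of Krt71. It had 2.39 FPKM in Aire-KO and 4.67 FPKM in WT, a log2 ratio of -0.94, just short of the threshold, with a counting interval of -1.21 to -0.73. With the libraries rescaled to equal sums or to a median ratio of 0 it passed the threshold, at -1.01 and -1.10. Krt71 therefore stood at 0.670 times the level of Krt25 in Aire-KO and 4.69 times in WT. The type II genes of the class summed to 2.00 FPKM in Aire-KO and 41.5 FPKM in WT, and the type I genes to 2.57 FPKM in Aire-KO and 7.75 FPKM in WT. Krt27 and Krt28, the other type I genes above the minimum, had 0.0135 and 0.0699 FPKM in Aire-KO and 1.64 and 1.12 FPKM in WT. With a pseudocount of 1, Krt28 was at -0.99 and no longer called.

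Hair shaft keratins, the hard keratins of hair, nail and tongue papillae, summed to 7.42 FPKM in Aire-KO and 91.0 FPKM in WT. Of 15 genes, 11 reached the minimum, of which 10 were lower and 0 higher. Over all genes above the minimum 20.5% were lower, and 35.7% at a mean of 0.5 to 5 FPKM, the range of 9 of the 11. Of these 11, 7 were under 0.5 FPKM in Aire-KO, reached the minimum through WT and could not be called higher. All of them but Krt85, at 0.476 FPKM, had to be lower. The minimum in Aire-KO alone left 4 genes, 3 of them lower, and a mean of 2 FPKM left 6, 5 of them lower. Krt84 (chr15:101525026-101532820), a hard type II keratin of the tongue, carried much of the sum, with 1.28 FPKM in Aire-KO and 42.9 FPKM in WT. It was 33.7-fold lower, with a log2 ratio of -4.97. Krt36 (chr11:100102013-100105626), a hard type I keratin of tongue papillae and nail, had 0.148 FPKM in Aire-KO and 13.1 FPKM in WT, a log2 ratio of -5.74. Krt82, of the hair cuticle, had 0.182 FPKM in Aire-KO and 7.76 FPKM in WT, a log2 ratio of -4.80. Krt81, of the hair cortex, was less reduced, with 2.19 FPKM in Aire-KO and 7.12 FPKM in WT, a log2 ratio of -1.66. It shares 29.0% of its 100-base windows with another keratin, and its row, like those of Krt83, Krt85 and Krt86, lies in a merged locus. Krt32 and Krt35 were listed at 0 in Aire-KO and had 3.05 and 1.43 FPKM in WT, an estimated 212 and 103 fragments. The exception was Krt33b, with 1.82 FPKM in Aire-KO and 2.50 FPKM in WT, a log2 ratio of -0.44. Its neighbour Krt33a had 0.110 FPKM in Aire-KO and 2.63 FPKM in WT, a log2 ratio of -3.70. Krt33a shares 12.4% and Krt33b 4.05% of its windows with other keratins, each with the other among them. The separate values of this pair thus depend on how reads were split. The remaining hair shaft genes above the minimum, Krt83, Krt86 and Krt85, had 0.0921 to 0.948 FPKM in Aire-KO and 1.30 to 4.51 FPKM in WT. Krt86 shares 24.1% of its windows with Krt81 and Krt83. With a pseudocount of 1, Krt85 and Krt86 were at -0.64 and -0.82 and no longer called.

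There were 3 type I genes that fall in none of these classes. Krt23 had 19.6 FPKM in Aire-KO and 151.3 FPKM in WT, a log2 ratio of -2.94. Krt42, a mouse type I keratin gene next to Krt17, had 1.13 FPKM in Aire-KO and 13.4 FPKM in WT, a log2 ratio of -3.46. Krt222, a keratin-like gene at the end of the chromosome 11 cluster, differed from both, with 14.4 FPKM in Aire-KO and 16.2 FPKM in WT, a log2 ratio of -0.16.

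Keratin-associated protein genes were barely transcribed in either library. The 52 genes summed to 2.11 FPKM in Aire-KO and 18.0 FPKM in WT, and 24 were listed at 0 in both libraries. Of the 28 above 0 in either library, 16 were listed at 0 only in Aire-KO and 3 only in WT. Over all genes above 0 in either library, at any level, 8.61% were listed at 0 only in Aire-KO and 1.85% only in WT. Some of the 16 had few fragments in WT, an estimated 1 for Krtap9-3, Krtap9-5 and Krtap5-3. The 2 shares are thus not at like levels. Only 6 genes reached the minimum, and 6 of 6 were lower. All 6 had a mean of 0.5 to 5 FPKM, where 35.7% of all genes were lower. In 5 of these 6 the Aire-KO value was under 0.5 FPKM, so they reached the minimum through WT and had to be lower. Krtap13-1 had 0.636 FPKM in Aire-KO and 4.62 FPKM in WT, an estimated 20 and 121 fragments. Krtap8-1, which encodes a protein rich in glycine and tyrosine, had 0.180 FPKM in Aire-KO and 3.57 FPKM in WT. The other 4, Krtap17-1, Krtap3-3, Krtap3-1 and Krtap7-1, had 0 to 0.0818 FPKM in Aire-KO and 1.17 to 2.46 FPKM in WT. Krtap3-3 shares 36.7% of its windows with Krtap3-2. Below the minimum, Krt34 was listed at 0 in Aire-KO with 0.953 FPKM in WT, and Krt39 had 0.0865 FPKM in Aire-KO and 0.703 FPKM in WT. Krtap10-10 had the largest difference in the other direction, at 0.536 FPKM in Aire-KO and 0.0755 FPKM in WT, an estimated 33 and 4 fragments. It lies within Tspear, and so do Krtap10-4 and Krtap12-1, which were listed at 0 in WT and had 0.0756 and 0.147 FPKM in Aire-KO. Krt31, Krtap5-5 and Krtap4-7 also had the higher value in Aire-KO, at 0.0550 to 0.0915 FPKM there and 0 to 0.0606 FPKM in WT.

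Lower and near-equal keratins lay side by side in the genome. The chromosome 11 cluster held 27 Krt genes in 1037 kb and the chromosome 15 cluster 25 in 682 kb. On chromosome 11, Krt14 lies between Krt9 and Krt16, and Krt17 between Krt16 and Krt42, and these 3 flanking genes were lower. On chromosome 15, Krt5 lies between Krt6a and Krt71, and both of these were lower. Krt7 lies between Krt80 and a merged locus of Krt81, Krt83, Krt85 and Krt86, all of them lower. The row of Krt85 gives only the span of that locus, so its place within the locus is not known. Krt8 and Krt18 lie next to each other at the end of the cluster, with Krt78 on the other side of Krt8. The chromosome 11 cluster also held 21 Krtap genes, of which 3 reached the minimum level, Krtap3-3, Krtap3-1 and Krtap17-1, and 3 were lower. Of 15 genes there whose symbols start with neither Krt nor Krtap, 0 reached that level. Of 9 such genes within the chromosome 15 cluster, 3 did and 3 were lower, with log2 ratios of -2.70 to -2.21. These were 4732456N10Rik, 5430421N21Rik and Gm5414. All 3 had a mean of 0.5 to 5 FPKM, as did the 3 Krtap genes, and 35.7% of all genes at that level were lower. Gm5414, with 0.161 FPKM in Aire-KO, reached the minimum through WT and had to be lower. Whether any gene with another symbol belongs to the keratin families was not checked. Of the 10 genes flanking the chromosome 11 cluster, 2 were lower and 1 higher, and of the 8 above the minimum flanking the chromosome 15 cluster, 2 were lower and 0 higher. These counts are near the shares over all genes above the minimum, 20.5% lower and 7.09% higher. Jup, the gene of the desmosomal protein plakoglobin, is one of the lower flanking genes, with 36.3 FPKM in Aire-KO and 92.7 FPKM in WT.

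**Figure D5:**
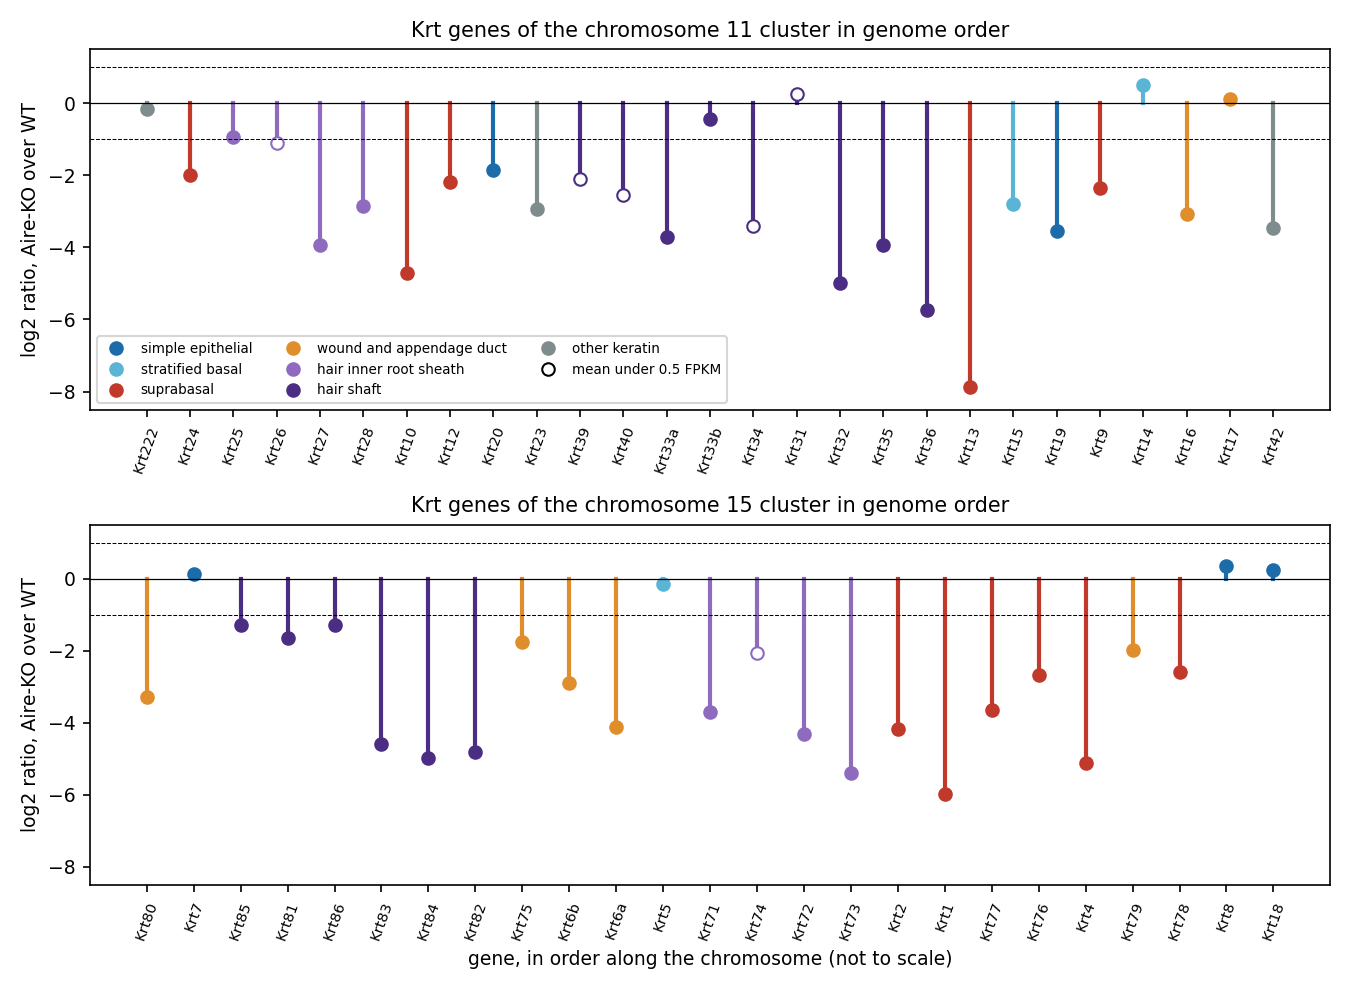
Log2 ratio of Aire-KO over WT (0.1 FPKM added) of each Krt gene in its order along chromosome 11 (top) and chromosome 15 (bottom), coloured by class. Open symbols have a mean under 0.5 FPKM and dashed lines mark a 2-fold difference. Krt85 is placed by the start of its merged locus. Krt14 at 0.51, Krt17 at 0.11, Krt5 at -0.14 and the end pair Krt8 and Krt18 interrupt rows of genes well below the lower line.

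Genes of proteins that work with keratin filaments were read against the 20.5% lower and 7.09% higher among all genes above the minimum. At a mean of 5 to 50 FPKM the shares were 11.1% and 6.32%, and at 0.5 to 5 FPKM 35.7% and 7.85%. That lowest range held 5 of 13 enzymes, 2 of 7 filament-binding genes, 2 of 14 plakin and desmosomal genes and 4 of 14 transcription factors. Enzymes that crosslink or process keratins and the cornified envelope were lower in 12 of 13 cases and higher in 0, with a median log2 ratio of -3.58. Of these 13, 4 (Padi1, Padi3, Padi4 and Casp14) were under 0.5 FPKM in Aire-KO and had to be lower, and with the minimum in Aire-KO alone 8 of 9 were lower with a median of -1.99. The median was -1.93 with a pseudocount of 1 and -2.09 with a mean of 2 FPKM. Padi1, a peptidylarginine deiminase, had 0.0333 FPKM in Aire-KO and 2.93 FPKM in WT, and Casp14, the protease of cornifying cells, had 0.248 FPKM in Aire-KO and 7.55 FPKM in WT. The highest ratios of this list belonged to the transglutaminases Tgm3, with 18.4 FPKM in Aire-KO and 23.7 FPKM in WT, and Tgm5, with 8.28 FPKM in Aire-KO and 25.4 FPKM in WT. Filament-binding and envelope proteins of cornified cells were lower in 7 of 7 cases above the minimum, with a median of -2.23. Of these 7, 1 (Tchhl1) was under 0.5 FPKM in Aire-KO and had to be lower. With the minimum in Aire-KO alone 6 of 6 were lower. The lowest ratios among the 7 belonged to Tchhl1, with 0.0486 FPKM in Aire-KO and 2.12 FPKM in WT, and Krtdap, with 140.2 FPKM in Aire-KO and 1087 FPKM in WT. The highest belonged to Rptn, with 69.5 FPKM in Aire-KO and 144.0 FPKM in WT, and Hrnr, with 0.885 FPKM in Aire-KO and 4.09 FPKM in WT.

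Plakins and desmosomal proteins, which anchor keratin filaments at the cell border, had 6 of 14 lower and 1 higher, with a median of -0.74. The desmosomal cadherin Dsg3 had 0.965 FPKM in Aire-KO and 5.33 FPKM in WT, and the plakin Evpl had 1.28 FPKM in Aire-KO and 6.35 FPKM in WT. The simple-epithelium cadherin Dsg2 had 114.3 FPKM in Aire-KO and 56.9 FPKM in WT, the gene called higher, and the plakophilin Pkp2 had 10.7 FPKM in Aire-KO and 6.80 FPKM in WT. Transcription factors of epidermis and hair were lower in 6 of 14 cases and higher in 0, with a median of -0.82. Barx2 had 8.14 FPKM in Aire-KO and 22.3 FPKM in WT, and Grhl1 had 10.4 FPKM in Aire-KO and 28.2 FPKM in WT. Foxn1, the factor that thymic epithelium shares with hair, had 66.5 FPKM in Aire-KO and 41.8 FPKM in WT, and Trp63, the p63 gene of basal epithelial cells, had 40.6 FPKM in Aire-KO and 27.6 FPKM in WT, both short of the 2-fold threshold.

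Intermediate filament genes outside the keratin family were split, with 8 of 15 lower, 2 higher and a median of -1.61. Over all genes above the minimum 20.5% were lower, and 35.7% at a mean of 0.5 to 5 FPKM, the range of 8 of the 15. Of these 15, 4 (Gfap, Nefl, Bfsp2 and Nes) were under 0.5 FPKM in Aire-KO and could not be called higher. All of them but Nes, at 0.483 FPKM, had to be lower. The median was -0.24 with the minimum in Aire-KO alone, where 4 of 11 were lower, and -0.60 with a mean of 2 FPKM, where 5 of 11 were. The neurofilament gene Nefl had 0.0907 FPKM in Aire-KO and 7.56 FPKM in WT, and the astrocyte gene Gfap had 0.0797 FPKM in Aire-KO and 2.55 FPKM in WT. The 2 that were higher were Vim, the filament of mesenchymal and blood cells, with 397.9 FPKM in Aire-KO and 150.1 FPKM in WT, and Des, the muscle filament, with 43.4 FPKM in Aire-KO and 20.9 FPKM in WT. Vim thus had a higher level than Krt14 in Aire-KO and a lower one in WT.

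In the authors' deposited table, which also rests on 1 library per genotype, 70 genes passed the authors' threshold, and 2 of the 104 were among them. These were Krt10 and Krt32, each with a q-value of 0.0155. The q-value in the authors' deposited table was 0.101 for Krt19, 0.106 for Krt77 and 0.607 for Krt13.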

How the data were processed

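Poly-A-selected RNA of sorted mTECs with high MHC class II was sequenced from pools of mice, per the labels' protocols and the series' design text, as 1 library per genotype. The authors deposited gene and isoform tables in FPKM. TopHat2, Cuffdiff and genome build mm10 were used per the submitters' processing notes, and the notes name no versions, annotation release or scaling. A p-value and a q-value deposited by the authors stand beside each row; they compare 2 libraries and are quoted only as theirs.

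Genes were chosen by symbol and classed by where each keratin is known to be made. The members, lists and classes were chosen with earlier results of these data known. With 1 library per genotype no test was run. Ratios were log2((Aire-KO + 0.1)/(WT + 0.1)), a rule of size called genes at 2-fold with a mean of 0.5 FPKM or more, and fold changes of low genes are understated. In 5 rows the authors' tool gave no estimate, and these were left out. Keratins that share sequence depend on how the authors' tool split reads.

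The text names Aire, each keratin reaching 5 FPKM in either library, the others by range, the 3 highest below the minimum, and the 2 lowest and 2 highest ratios of each partner list. A few further members, such as Krt2 and Krtap10-10's neighbours, were named after their values were seen.

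Fragments were estimated from FPKM steps fitted on other genes of 1000 bp or more, where 78.4% of 864 values in Aire-KO and 78.3% of 508 in WT lay within 0.1 of a whole number. Of keratin values at 1 to 10 fragments, 13 of 16 in Aire-KO and 12 of 18 in WT did. From these, rounded to whole numbers, exact 95% binomial intervals were computed for transcripts of 500 bp or more. Fragments carry no molecular identifiers, so these intervals speak for counting error alone. The interval calculation was run on simulated whole counts drawn with the same fitted steps. That checks the calculation only and cannot show that the steps or whole counts hold for these libraries.

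Promoters came from RefSeq (GRCm38.p6): 82 members matched by symbol and 79 were kept, with a start within 100 bp of the row's 5′ end, leaving out Krt14, Krtap10-4 and Krtap16-1. Alternatives were pseudocounts of 0.01 and 1, no minimum, a mean of 2 FPKM, a minimum in Aire-KO alone, 2 rescalings, a 4-fold threshold, rows of status OK, isoform sums and, added after seeing the data, leaving out genes with shared windows. Python 3.11.15, pandas 2.3.3, NumPy 2.4.6, SciPy 1.17.1 and matplotlib 3.10.9 were used.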

Additional observations from a re-analysis of the deposited data

How the results depend on the processing

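No paired analysis was possible because each genotype has 1 library, and for the same reason no library could be left out. No value turned its direction past the threshold under any alternative run. The count of lower Krt genes moved by over 1.5 times only when 0.5 FPKM was required in Aire-KO alone, where 24 of 33 were lower. That minimum gave 1 of 2 Krtap genes lower and 1 higher, and without a minimum 15 of 28 were lower and 2 higher. A mean of 2 FPKM left 1 Krtap gene, and 1 of 1 was lower. At 4-fold, 0 transcription factors and 2 plakin and desmosomal genes were lower, and with a pseudocount of 1, 3 transcription factors were. Of the other intermediate filament genes, 4 were lower with the minimum in Aire-KO and 5 with a mean of 2 FPKM. Rescaling to equal sums shifted log2 ratios by -0.08, and setting the median ratio of 8670 genes with 5 FPKM in both libraries to 0 shifted them by -0.17, less for low genes because of the pseudocount and not at all for genes listed at 0 in Aire-KO. For equal sums, then the median, log2 ratios of class sums became 0.096 and -0.0034 for simple, -0.071 and -0.17 for basal, -4.06 and -4.16 for suprabasal, -0.15 and -0.25 for wound and duct, and -2.44 and -2.53 for other keratins. The median scaling gave -3.60 for inner root sheath and -3.79 for hair shaft. Under both scalings Krt25 passed the 2-fold threshold, at -1.01 and -1.10. Of the 52 genes above the minimum, 7 called lower did not reach 4-fold, and 3 lost the 2-fold call with a pseudocount of 1 (Krt28, Krt85 and Krt86). Below the minimum, values rest on few fragments and were not called.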
